A study of Homo sapiens with 4 samples.

Results

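Control cultures of the same cell line were set against each other: MCF10A carrying pBabe-GFP and MCF10A carrying the empty pBabe vector. MCF10A is an immortalised, non-tumorigenic line of human mammary epithelial cells, pBabe is a retroviral vector that gives stable expression of an insert, and GFP is a fluorescent protein from jellyfish that serves as a control for making a foreign protein. The comparison took every gene of the deposited table in the library labelled MCF10A/GFP and the library labelled MCF10A/vec, which are 2 of the 4 libraries of the study. Of 18840 genes, 12297 had a mean of at least 1 CPM, the field's depth-normalised unit of reads, over both libraries and were compared. The other libraries carried pBabe-miR-105 and pBabe-MYC, and they enter below only as values beside those of the controls. All cultures were kept in a DMEM/F12 medium that contained insulin, EGF, hydrocortisone, cholera toxin and horse serum, and poly(A) RNA was sequenced from total RNA. The labels do not say whether a culture was a pool of transduced cells or a clone. Each construct had 1 library, so the GFP insert, the culture and the library preparation cannot be told apart, no p-value is given, and every interval below is an exact 95% binomial (Clopper-Pearson) interval of a ratio that covers counting error only.

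Both libraries carried the markers of a basal mammary epithelium. Of 8 basal markers fixed for this line, 8 reached 1 CPM, among them KRT5, a keratin of basal cells, at 1757 CPM in vector and 1614 in GFP, and together they summed to 13219 CPM in vector and 11292 in GFP. The 6 luminal markers in the table were also present, at a sum of 1084 and 1006 CPM. Fibroblast markers reached 1 CPM for 2 of 6 genes and summed to 203 and 196 CPM, with the fibrillar collagen COL3A1 at 0 reads in both. Immune markers summed to 86.4 and 88.9 CPM, endothelial markers to 46.9 and 49.7, adipocyte markers to 3.89 and 4.26, and erythroid markers to 0.865 and 0.361. The recovered depth was 9138429 reads for vector and 14025115 for GFP, so that 1 read was worth 0.108 and 0.0722 CPM. GFP reads themselves were not analysed here.

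The controls were alike for most genes and apart for some. Across genes, log2 folds are of CPM plus 0.5, so that changes of scarce genes come out too small. A fold given for a single gene is the plain ratio of its CPM. Of the 12297 genes, 9848 (80.1%) lay within 1.5-fold of each other. At least 2-fold higher in GFP were 391 genes (3.18%), and at least 2-fold lower were 122 (0.992%), so 76.2% of the genes past 2-fold were higher in GFP. That split depended on the scaling: median-of-ratios size factors gave 313 higher and 167 lower (65.2% higher), and the deposited values without further scaling gave 318 and 181 (63.7% higher). The count of lower genes also rested on scarce genes, with 47 left at a mean of at least 5 CPM and 389 with no filter, where 272 and 412 were higher. At 1.5-fold, the threshold used for gene lists below, 1611 genes (13.1%) were higher and 838 (6.81%) lower. The median log2 fold over all genes was 0.04. Because the folds followed transcript length, as described further on, counts of gene lists are also given after the median log2 fold of genes of like transcript length, in 20 bins, had been taken from each gene. This adjustment was added with the results in view, and by it 702 of 12191 genes (5.76%) were at least 1.5-fold higher and 603 (4.95%) lower.

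**Figure D1:**
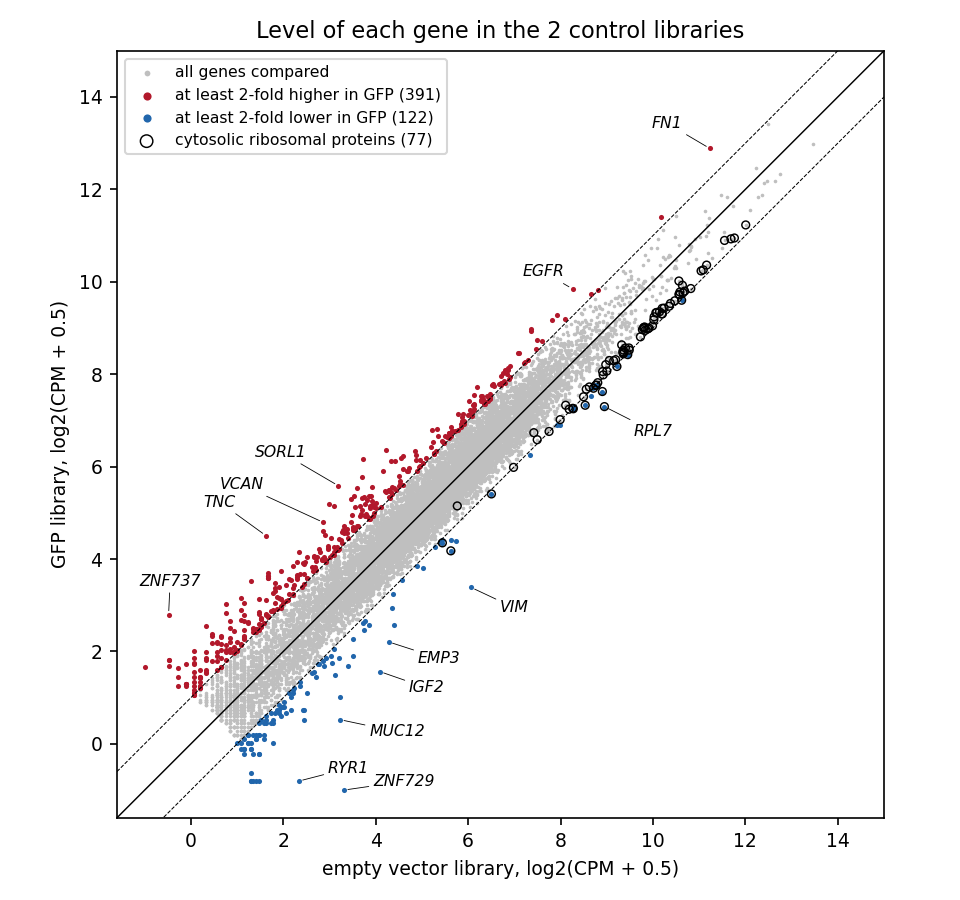
Each point is 1 gene, placed by its log2(CPM + 0.5) in the empty vector library (horizontal) and the GFP library (vertical); the solid line marks equal levels and the dashed lines 2-fold. The 391 genes at least 2-fold higher in GFP are red, the 122 lower are blue, and the open circles are the 77 cytosolic ribosomal protein genes, which all lie below the line of equal levels.

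The distance between the controls was smaller than that of either other construct from vector. All 3 comparisons share the vector library. Past 2-fold were 513 genes (4.17%) for GFP and 4762 of 12196 (39.0%) for miR-105, with 19.7% higher and 19.3% lower. The MYC library had 3279 of 12573 genes past 2-fold (26.1%), with 13.7% higher and 12.4% lower. The central 90% of genes had log2 folds from -0.66 to 0.87 in GFP, from -2.49 to 2.19 in miR-105, and from -1.89 to 1.83 in MYC.

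Cytosolic ribosomal protein genes were lower in the GFP library as a block. These genes encode the proteins of the cytoplasmic ribosome, and together with elongation factors they make up a large part of the mRNA of a growing cell. Many of their mRNAs begin with a C followed by a run of pyrimidines, the 5′ terminal oligopyrimidine or TOP motif, through which nutrient and growth signals act on their translation and stability. Of 77 members measured, 76 were at least 1.5-fold lower in GFP, beside 6.81% of all genes, and 0 were higher. The median log2 fold was -0.88, and the members ranged from -1.65 (RPL7) to -0.54 (RPL15). Summed over members the level was 74071 CPM in vector, 41336 in GFP, 40203 in miR-105 and 71320 in MYC. GFP thus lay near miR-105 and vector near MYC, and against the same vector library the median log2 fold was -0.88 in GFP, -0.88 in miR-105 and -0.0019 in MYC.

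The sequence around the start of transcription is shown for 6 of the members with the lowest folds that have a single RefSeq start (GRCh38.p14), since it holds a feature that most members share. Each window runs from 20 bases before the start to 20 bases from it, 5′ to 3′ on the strand that is transcribed, and the capitals mark the unbroken run of C and T that opens the transcript.
RPS27: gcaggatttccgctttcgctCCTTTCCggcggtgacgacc
RPL12: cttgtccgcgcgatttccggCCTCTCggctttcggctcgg
RPS3A: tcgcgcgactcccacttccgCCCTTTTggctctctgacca
RPS9: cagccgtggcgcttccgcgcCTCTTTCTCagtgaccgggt
RPL29: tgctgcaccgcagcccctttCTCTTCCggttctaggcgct
RPL41: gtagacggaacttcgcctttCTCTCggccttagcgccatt
The windows lie at chr1:153990742-153990781 (RPS27, plus strand), chr9:127451387-127451426 (RPL12, minus strand), chr4:151099608-151099647 (RPS3A, plus strand), chr19:54200838-54200877 (RPS9, plus strand), chr3:51995876-51995915 (RPL29, minus strand) and chr12:56116613-56116652 (RPL41, plus strand). Of the 77 genes measured, 62 were matched to RefSeq, with 77 start sites. A start with C at its first transcribed base and at least 4 further bases of C or T, read on the transcribed strand only, was found at 46 of those 77 sites (59.7%), against 1429 of all 35116 RefSeq start windows (4.07%). A match describes the letters of the annotated start and not the start used in these cells.

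RPL7, a protein of the large subunit, stood at 494 CPM in vector and 157 in GFP, 3.14-fold lower (2.98 to 3.31), and at 224 CPM in miR-105 and 330.5 in MYC. RPS27, a protein of the small subunit, stood at 48.9 CPM in vector and 17.6 in GFP, 2.77-fold lower (2.37 to 3.25). For RPL7 the GFP library was thus the lowest of the 4, and for RPS27 as well, since miR-105 held 85.9 CPM and MYC 60.3. RPL12 stood at 479 against 197 CPM, 2.43-fold lower (2.32 to 2.55), and RPS9 at 1574 against 776 CPM, 2.03-fold lower (1.98 to 2.08). RPL13, among the most abundant members, stood at 2177 against 1225 CPM, 1.78-fold lower (1.74 to 1.81). RPLP0, of the ribosomal stalk and often used as a reference gene, stood at 4117 against 2402 CPM, 1.71-fold lower (1.69 to 1.74). Counting error was small beside these differences. Ribosomal protein genes have many processed pseudogenes, and how reads that match several places were counted is not given in the sources used here. For this reason the value of a single member is less certain than the block.

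Translation factors, mitochondrial ribosomal proteins and the respiratory chain were mostly below vector in GFP, by less, and for mitochondrial ribosomal proteins the count was no larger than that of all genes after the length adjustment. Of 35 translation factors, 9 were at least 1.5-fold lower and 0 higher, beside 6.81% and 13.1% of all genes. The list's median was -0.37. With length adjusted for, 6 were lower and the median was -0.26. EIF3G, a subunit of the initiation factor eIF3, stood at 165 and 89.4 CPM, 1.85-fold lower (1.71 to 1.99), and EEF1G, a subunit of the elongation factor 1 complex, at 2477 and 1458 CPM, 1.70-fold lower (1.67 to 1.73). EEF1A1, which brings aminoacyl-tRNA to the ribosome, was closer, at 6415 and 4673 CPM (1.37-fold lower, 1.36 to 1.39), and EEF2, which moves the ribosome along, stood at 5651 and 4626 CPM (1.22-fold lower, 1.21 to 1.24). EIF3G overlaps P2RY11 on the opposite strand, and whether the counting used strand is not given.

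Mitochondrial ribosomal proteins had 22 of 70 members at least 1.5-fold lower and 0 higher, beside 6.81% and 13.1% of all genes. Their median log2 fold was -0.46. After the length adjustment 3 of 70 were lower, beside 4.95% of all genes, and the median was -0.15. MRPL23 stood at 42.9 CPM in vector and 20.9 in GFP, 2.05-fold lower (1.76 to 2.39). Nuclear genes of oxidative phosphorylation had 24 of 72 members lower, 0 higher and a median of -0.49, and after the length adjustment 10 lower and a median of -0.18. UQCRB, a subunit of respiratory complex III, stood at 332 and 188 CPM, 1.76-fold lower (1.67 to 1.86), and ATP5I, a subunit of the ATP synthase, at 53.4 and 28.6 CPM, 1.87-fold lower (1.63 to 2.14). ATP5I overlaps MYL5 on the opposite strand, with the same limit as EIF3G. The proteasome, which degrades tagged proteins, had 1 of 31 members lower (PSMD4, 122 and 79.9 CPM), 0 higher and a median of -0.30, which was 0.0017 after the adjustment. Unlike the cytosolic ribosomal proteins, both mitochondrial lists were above vector in the library labelled miR-105, with medians of 0.67 and 0.19 there. By summed level GFP was the lowest of the 4 libraries for both lists, at 2104 CPM for mitochondrial ribosomal proteins (vector 2913) and 5561 CPM for oxidative phosphorylation (vector 7670).

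Ribosome biogenesis, which builds the ribosome in the nucleolus, did not move as a block. The median log2 fold was -0.07. Of 54 members, 2 were at least 1.5-fold higher and 4 lower, beside 13.1% and 6.81% of all genes, so the lower count was near that share. None of these 6 calls was left after the length adjustment, where 0 were higher and 0 lower. POLR1A, the catalytic subunit of RNA polymerase I, stood at 38.1 CPM in vector and 76.9 in GFP, 2.02-fold higher (1.79 to 2.28), and UTP20, of the small subunit processome, at 33.6 and 59.6 CPM. FBL, the rRNA methyltransferase fibrillarin, stood at 120.0 and 67.3 CPM, 1.78-fold lower (1.63 to 1.95), and the nucleolar chaperone NPM1 at 473 and 285 CPM, 1.66-fold lower (1.59 to 1.74). POLR1A and UTP20 have annotated transcripts of 12749 and 9025 bases, and FBL and NPM1 of 1160 and 1758.

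**Figure D2:**
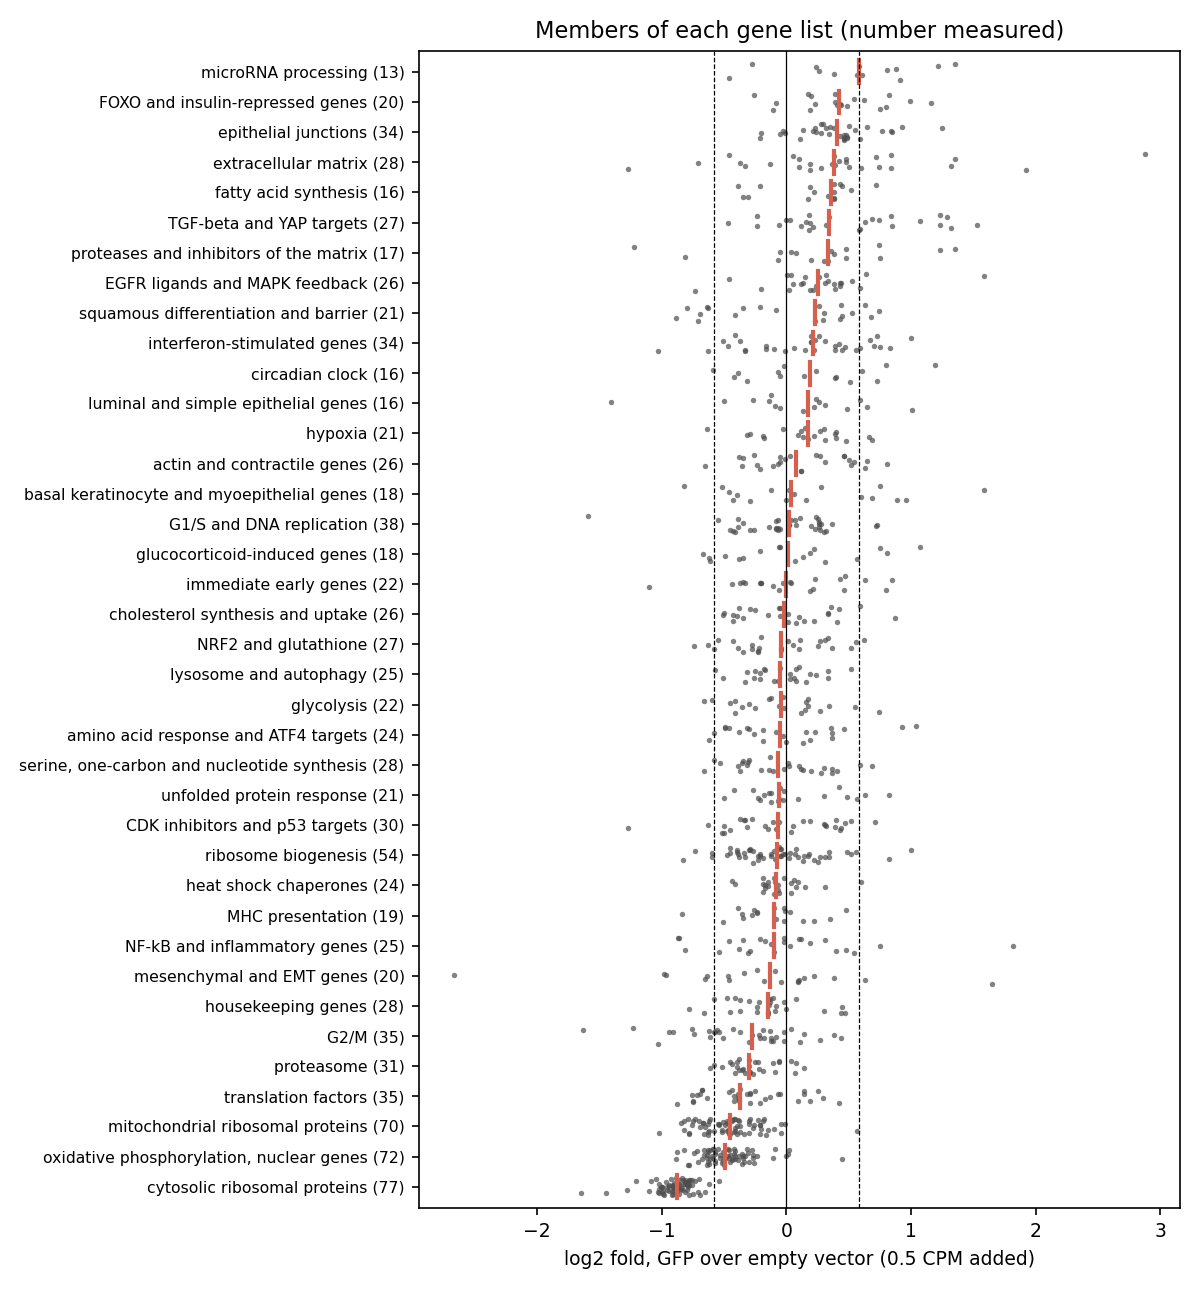
Each point is the log2 fold of 1 gene, GFP over empty vector after adding 0.5 CPM, in every list with at least 13 genes measured (number in brackets); the red bar is the median of the list, and the dashed lines mark 1.5-fold. Cytosolic ribosomal proteins (median -0.88) form the lowest block, and microRNA processing (0.58), FOXO (0.42) and junction genes (0.40) have the highest medians, which were 0.07, 0.17 and 0.18 after the length adjustment.

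Genes of the TGF-beta and YAP responses were for the most part above vector in GFP, 22 of 27 by any amount. TGF-beta acts through SMAD proteins, and YAP is held in check by cell contact; both induce genes of the matrix and the cytoskeleton. Of 27 members, 12 were at least 1.5-fold higher, beside 13.1% of all genes, 0 were lower, and the median log2 fold was 0.34. After the length adjustment 7 were higher and 0 lower, with a median of 0.35. LTBP2, a protein of elastic fibres related to the binding proteins of latent TGF-beta, stood at 72.5 CPM in vector and 209.7 in GFP, 2.89-fold higher (2.66 to 3.15). The ligand genes TGFB2 (48.9 and 116 CPM) and INHBA (37.2 and 91.5 CPM) stood 2.37-fold (2.13 to 2.63) and 2.46-fold (2.18 to 2.78) above vector. The receptor gene TGFBR2 (725 and 1209 CPM) lay 1.67-fold higher (1.62 to 1.72). Members that respond early to these signals did not share the difference. CTGF stood at 28.6 and 32.4 CPM, CYR61 at 71.4 and 81.6, and SMAD7, the inhibitory SMAD, at 14.3 and 18.2. ID1, a target of the related BMP signal, stood at 240.1 and 173 CPM, 1.39-fold lower (1.31 to 1.47).

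Several genes of the extracellular matrix were far apart. FN1, fibronectin, stood at 7563 CPM in GFP against 2405 in vector, 3.14-fold higher (3.10 to 3.19), with 1966 CPM in miR-105 and 42.5 in MYC. TNC, tenascin C, stood at 2.59 CPM in vector and 22.2 in GFP, 8.58-fold higher (5.66 to 13.6), and VCAN, the proteoglycan versican, at 6.81 and 27.2 CPM, 3.99-fold higher (3.05 to 5.29). For TNC the range over the 4 libraries was wider than that between the controls, since miR-105 held 89.2 CPM and MYC 1.71. COL4A1, a chain of basement membrane collagen, stood at 40.1 and 101 CPM, 2.51-fold higher (2.24 to 2.82). Of 28 matrix genes, 9 were at least 1.5-fold higher and 2 lower, beside 13.1% and 6.81% of all genes, so the lower count was near that share. The median log2 fold of the matrix genes was 0.39. Their transcripts are long, with a median of 6520 bases. After the length adjustment 4 were higher and 3 lower, beside 5.76% and 4.95% of all genes, and the list's median was -0.04. POSTN, periostin, was 2.54-fold lower (1.88 to 3.47), at 12.9 and 5.06 CPM, and COL6A1, of collagen VI, was 1.66-fold lower (1.36 to 2.02), at 23.2 and 14 CPM. Among proteases and inhibitors of the matrix, 4 of 17 were higher and 2 lower, and 4 and 1 after the adjustment. MMP2, gelatinase A, stood at 6.49 and 17.3 CPM, 2.66-fold higher (2.0 to 3.59), and TIMP1, an inhibitor of such enzymes, at 109.9 and 62.3 CPM, 1.76-fold lower (1.61 to 1.93).

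Mesenchymal genes did not share 1 direction. Of 20 members, 2 were at least 1.5-fold higher (FN1 and TAGLN) and 5 lower, beside 13.1% and 6.81% of all genes. The list's median was -0.14. TAGLN overlaps PCSK7 on the opposite strand, and their reads may not be separate. Adjusted for length, 2 members were higher and 4 lower. VIM, the intermediate filament of mesenchymal cells, stood at 66.2 CPM in vector and 9.97 in GFP, 6.64-fold lower (5.51 to 8.04), and at 128 CPM in miR-105 and 731 in MYC. GFP was therefore the lowest of the 4 libraries for vimentin and the highest for fibronectin. TGFB1I1, a focal adhesion protein also called HIC-5, stood at 72.2 and 36.7 CPM, 1.97-fold lower (1.75 to 2.21). The transcription factors of the mesenchymal programme were closer: SNAI2 stood at 149.9 and 118 CPM (1.27-fold lower, 1.18 to 1.36), ZEB1 at 4.86 and 6.50 CPM, and the cadherin CDH2 at 1.19 and 1.30 CPM, both with intervals that include 1.

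Most epithelial junction genes lay above vector in GFP, but the count past 1.5-fold was near that of all genes after the length adjustment. Of 34 members, 7 were at least 1.5-fold higher and 0 lower, beside 13.1% and 6.81% of all genes. A log2 fold above 0 was seen for 29 members, with a list median of 0.40. MARVELD2, tricellulin, a tight junction protein of corners between cells, stood at 7.35 and 18.1 CPM, 2.47-fold higher (1.88 to 3.27). The desmosome genes DSC2 (103 and 197 CPM), DSG2 (397 and 710.4 CPM) and DSP (999.8 and 1700 CPM) were 1.92-fold (1.78 to 2.06), 1.79-fold (1.72 to 1.86) and 1.70-fold (1.66 to 1.74) higher. CDH1, E-cadherin, stood at 549 and 768 CPM, 1.40-fold higher (1.35 to 1.45). JUP, plakoglobin, and the claudin CLDN7 were level, at 530.1 and 520.0 CPM and at 228 and 227 CPM. Transcripts of this list are long, with a median of 4496 bases, and after the length adjustment 2 of 34 were at least 1.5-fold higher, beside 5.76% of all genes, with a median of 0.18.

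At 1.5-fold, basal and luminal genes held calls in both directions, beside 13.1% of all genes higher and 6.81% lower. After the length adjustment those shares were 5.76% and 4.95%. Of 18 basal and myoepithelial genes, 6 were at least 1.5-fold higher and 1 lower, and the median was 0.04. Adjusted for length, 3 were higher and 1 lower. EGFR, the receptor of the EGF in the medium, stood at 306 CPM in vector and 920.4 in GFP, 3.01-fold higher (2.88 to 3.13), with 507 CPM in miR-105 and 593 in MYC, so vector was the lowest and GFP the highest of the 4. TP63, the transcription factor of basal cells, stood at 7.14 and 14.4 CPM, 2.01-fold higher (1.52 to 2.70). The basal keratins KRT17 and KRT14 were lower, and so was the keratin KRT16. KRT17 stood at 6927 and 5131 CPM (1.35-fold lower, 1.34 to 1.36) and KRT14 at 511 and 387 CPM (1.32-fold lower, 1.27 to 1.37). KRT16 stood at 666 and 378 CPM (1.76-fold lower, 1.70 to 1.83), and its log2 fold went from -0.82 to -0.52 after the length adjustment. The integrins ITGB6 (164 and 501 CPM) and ITGA2 (39.4 and 112 CPM) were at least 2-fold higher, whereas ITGB4 of the hemidesmosome was level, at 1938 and 1934 CPM. Of 16 luminal and simple epithelial genes, 3 were higher and 1 lower, before and after the adjustment. Before it, these luminal counts were near the shares of all genes. KRT80 stood at 80.6 and 163 CPM, 2.02-fold higher (1.86 to 2.20), and KRT19, a keratin of simple epithelia, at 19.8 and 7.15 CPM, 2.77-fold lower (2.15 to 3.57). Squamous genes had 3 of 21 higher and 6 lower, with SLPI, a protease inhibitor of secretions, at 241 and 154 CPM and A2ML1, a protease inhibitor of the epidermis, at 164 and 254 CPM. After the length adjustment 4 squamous genes were higher and 0 lower, and SLPI, with a transcript of 596 bases, went from a log2 fold of -0.64 to -0.18. CASP14, a caspase of the cornified layer, stood at 1.95 and 11 CPM, 5.64-fold higher (3.45 to 9.78), against 3.76 CPM in miR-105 and 1.80 in MYC.

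Signalling and stress lists held single genes that differed and few shared shifts. Beside their counts stand the shares of all genes at 1.5-fold, 13.1% higher and 6.81% lower. After the length adjustment these shares were 5.76% and 4.95%. REL, a subunit of NF-kB, stood at 10.6 CPM in vector and 38.7 in GFP, 3.65-fold higher (2.94 to 4.58), yet of 25 NF-kB and inflammatory genes 2 were at least 1.5-fold higher and 3 lower. ICAM1 (8.97 and 4.91 CPM) and the chemokine CXCL1 (4.32 and 2.17 CPM), both induced by NF-kB, were 1.83-fold (1.31 to 2.56) and 2.0-fold (1.21 to 3.32) lower. Of 26 EGFR ligand and MAPK feedback genes, 3 were at least 1.5-fold higher and 1 lower. In this list 23 members had a log2 fold above 0, and the median was 0.25. After the length adjustment 4 were higher and 0 lower, with a median of 0.16. The 1 lower member was the EGFR ligand AREG, amphiregulin, at 39.7 and 23.8 CPM, 1.67-fold lower (1.43 to 1.94). FOXO targets and genes repressed by insulin had 6 of 20 members higher, 0 lower and a median of 0.42, with ARRDC4, an arrestin-like protein, at 44.8 and 100.3 CPM (2.24-fold higher, 2.01 to 2.51). After the length adjustment 3 of the 20 were higher and the median was 0.17. Among 18 glucocorticoid-induced genes 3 were higher and 3 lower, and 3 and 0 after the adjustment. ZBTB16 stood at 48.5 and 102 CPM, 2.11-fold higher (1.89 to 2.35), and TSC22D3, known as GILZ, at 853 and 535 CPM, 1.59-fold lower (1.54 to 1.64). Interferon-stimulated genes had 7 of 34 higher and 2 lower and a median of 0.21, and 4 higher and 2 lower after the adjustment. The counts of lower genes were near the shares of all genes. SAMD9 stood at 118 and 237 CPM, 2.01-fold higher (1.88 to 2.15), and the RNA sensor gene IFIH1 at 17.4 and 29.6 CPM, whereas IFI44L (4.22 and 1.81 CPM) and IFITM2 (117 and 75.4 CPM) were lower. ISG15, a ubiquitin-like protein induced by interferon, stood at 6.49 and 4.41 CPM, 1.47-fold lower (1.01 to 2.14). SLC30A1, a zinc exporter induced by metal, stood at 10.7 and 30.4 CPM, 2.84-fold higher (2.28 to 3.57), while the metallothionein MT1E stood at 24.0 and 13.9 CPM, 1.73-fold lower (1.42 to 2.11).

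Genes of mitosis leaned lower in GFP. Of 35 G2/M genes, 9 were at least 1.5-fold lower and 0 higher, beside 6.81% and 13.1% of all genes. The median log2 fold of the list was -0.28. PTTG1, securin, stood at 8.22 CPM in vector and 2.31 in GFP, 3.55-fold lower (2.32 to 5.55), and CDC20, which activates the anaphase-promoting complex, at 10.8 and 4.33 CPM, 2.49-fold lower (1.79 to 3.50). Both were far higher in the library labelled miR-105, at 147 and 371 CPM. CCNB1, cyclin B1, stood at 18.2 and 10.7 CPM, 1.70-fold lower (1.35 to 2.13). MKI67, the Ki-67 protein, and CENPE, a kinetochore motor, lay the other way, at 11.4 and 14.9 CPM (1.31-fold higher, 1.03 to 1.67) and at 7.68 and 10.6 CPM (1.38-fold higher, 1.04 to 1.86). Their transcripts are long, at 12678 and 8612 bases, and after the median of genes of like length was taken away their log2 folds were -0.32 and -0.11. The list's median was then -0.40, with 8 of 35 members at least 1.5-fold lower and 0 higher, beside 4.95% and 5.76% of all genes. Of 38 genes of G1/S and DNA replication, 2 were higher and 1 lower, both under the unadjusted shares of all genes, and the median was 0.02. The lower gene was CDT1, a licensing factor, at 10.8 and 3.25 CPM (3.33-fold lower, 2.32 to 4.84). CDKN1C, the CDK inhibitor p57, stood at 13.9 and 5.49 CPM, 2.54-fold lower (1.90 to 3.42).

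MicroRNA processing genes, which make microRNAs and carry out their silencing, had the highest median of the lists with at least 13 genes measured, 0.58. Of 13 members, 6 were at least 1.5-fold higher and 0 lower, beside 13.1% and 6.81% of all genes. AGO2, the Argonaute that cuts its targets, stood at 18.9 and 44.8 CPM, 2.37-fold higher (2.0 to 2.82), AGO3 at 4.43 and 12.1 CPM, 2.72-fold higher (1.92 to 3.93), and DICER1, which cuts precursors, at 66.5 and 126 CPM, 1.89-fold higher (1.72 to 2.07). DROSHA (55.8 and 72.8 CPM) and DGCR8 (61.1 and 73.4 CPM) of the nuclear processor were under 1.5-fold. The median transcript of this list has 8438 bases, and after the length adjustment 1 of 13 was higher and the median was 0.07.

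The genes that the study's constructs bear on differed little between the controls, apart from TJP1. MYC mRNA stood at 207 CPM in vector and 198 in GFP, a ratio of 0.957 (0.902 to 1.02), and MXI1, an antagonist of MYC, at 81.2 and 88.9 CPM, a ratio of 1.09 (0.999 to 1.2). Both intervals include 1. TJP1, the tight junction protein ZO-1, stood at 264 and 388 CPM, 1.47-fold higher in GFP (1.40 to 1.54), and at 219 CPM in miR-105 and 99.3 in MYC. Genes with transcripts as long as that of TJP1 (7950 bases) had the same difference at the median, so that its log2 fold was 0.0015 once their median was taken away. Reference genes were not all level. GAPDH, the glycolytic enzyme, stood at 1582 and 999 CPM, 1.58-fold lower (1.55 to 1.62), and ACTB, cytoplasmic actin, at 3426 and 3182 CPM, 1.08-fold lower (1.06 to 1.09). Of 28 housekeeping genes, 0 were at least 1.5-fold higher and 2 lower (GAPDH and RPLP0), with a median of -0.15. The count of lower genes was near the share of all genes, 6.81%. After the length adjustment 1 member was lower, 0 were higher and the median was 0.01. GAPDH and RPLP0 then had log2 folds of -0.42 and -0.41, short of 1.5-fold.

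**Figure D3:**
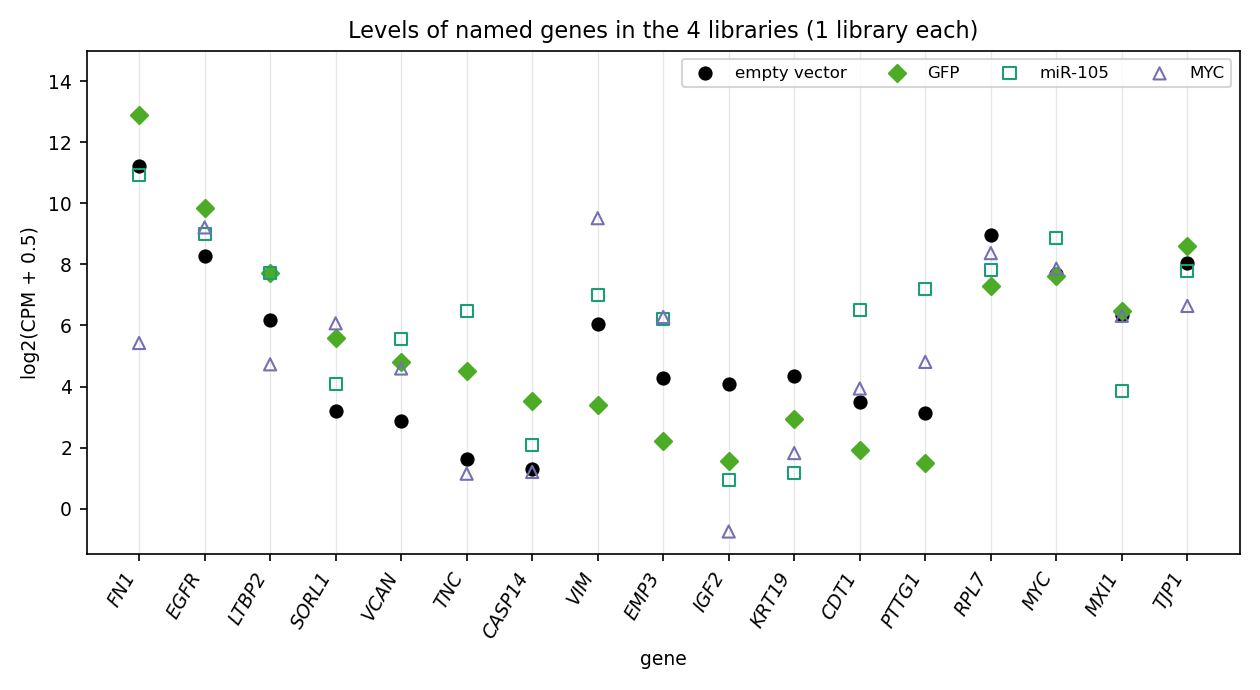
Level of 17 genes named in the text, as log2(CPM + 0.5), in the empty vector (filled circle), GFP (filled diamond), miR-105 (open square) and MYC (open triangle) libraries, with 1 library each and no error bars. For FN1 and EGFR the GFP library is the highest of the 4, for VIM, EMP3, CDT1, PTTG1 and RPL7 it is the lowest, and for MYC and MXI1 both controls coincide.

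The genes farthest apart, ranked by the bound of the counting interval nearest to 1, were mostly of low level. Highest in GFP was ZNF737, a KRAB zinc finger gene of chromosome 19 (GRCh38 19:20535825-20565809), with 2 reads in vector and 89 in GFP, or 0.216 and 6.43 CPM, 29.7-fold (7.99 to 249). RD3, a retinal protein gene, had 0 and 37 reads, at least 8.24-fold higher against a floor of 3 reads in vector. Then came TNC, NBEAL1 (12.8 and 71.4 CPM, 5.60-fold) and SORL1, a sorting receptor of endosomes (8.65 and 47.5 CPM, 5.50-fold). NBPF10, KIAA0754, HMBOX1, POMK and CASP14 followed, between 4.28-fold and 6.44-fold higher. ZNF492 and ZNF98 had the same reads in each library, 2 in vector and 42 in GFP, so they are taken as close copies that stand for 1 observation. NBPF10 belongs to a family of near-identical copies and is likewise uncertain.

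Lowest in GFP was ZNF729, another zinc finger gene of chromosome 19, with 87 reads in vector (9.41 CPM) and 0 in GFP, at least 43.4-fold lower against the floor of 3 reads, and with 32.1 CPM in MYC. VIM and EMP3, a membrane protein of the PMP22 family, stood beside it at higher levels; EMP3 went from 18.9 to 4.12 CPM, 4.59-fold lower (3.39 to 6.31), with 74.0 CPM in miR-105 and 77.1 in MYC. IGF2, the imprinted growth factor, stood at 16.5 and 2.46 CPM, 6.73-fold lower (4.62 to 10.1), and at 1.41 CPM in miR-105 and 0.0948 in MYC. Here vector and not GFP was the library apart from the rest. The same held for MUC12 (8.86 and 0.939 CPM, 0 reads in both other libraries), and for MUC3A, MUC5B and FBN3, which had 18 or 19 reads in vector, 1 in GFP and at most 1 elsewhere. RYR1, the calcium release channel of skeletal muscle, had 42 reads in vector, 1 in GFP, 0 in miR-105 and 15 in MYC. CADM3, with 82 and 21 reads, overlaps ACKR1, and their reads cannot be told apart.

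Past 2-fold, higher and lower genes differed in more than direction. The 391 higher genes had a median annotated transcript of 6996 bases and a GC content of 43.5%, the 122 lower genes 2210 bases and 59.2%, and all genes compared 3385 bases and 48.9%. The lower genes were also scarcer, with 73.8% of them under 10 CPM against 43.7% of the higher genes and 23.2% of all. Their median level was 4.65 CPM in vector, 1.52 in GFP, 2.59 in miR-105 and 4.36 in MYC. The higher genes had a median of 7.78 CPM in vector, 18.7 in GFP, 14 in miR-105 and 12.8 in MYC. Both sets were chosen by their levels in vector and GFP, so the place of those libraries among the 4 follows in large part from the choice.

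Transcript length, taken as the longest annotated protein-coding transcript of a gene in GENCODE v29, ordered the differences across the whole range. The median log2 fold was -0.47 for 454 genes under 1000 bases, -0.31 from 1000 to 2000, -0.13 from 2000 to 3000, 0.06 from 3000 to 4000, 0.24 from 4000 to 6000, 0.43 from 6000 to 8000, and 0.63 for 1035 genes of 8000 bases or more. Of the longest genes 54.6% were at least 1.5-fold higher and 1.93% lower, and of the shortest 3.96% were higher and 35.0% lower. Across 12166 genes, which are not independent replicates, Spearman's rho with the log2 fold was 0.629 for transcript length, 0.469 for coding length, 0.483 for 3′ UTR length and -0.356 for GC content. Genes were also put in 3 classes of equal size by coding length and by 3′ UTR length. Genes short in both had a median of -0.38, genes short in coding length and long in 3′ UTR 0.08, genes long in coding length and short in 3′ UTR 0.02, and genes long in both 0.51. The order by GC content was weaker beside length: under 40% GC the median was 0.27, and 0.04 after genes of like length were taken into account, while at 60% or more it was -0.23 and -0.12.

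The same order by length was seen, to a smaller extent, wherever vector or GFP was compared with another library. From the shortest to the longest genes the median ran from -0.15 to 0.30 for miR-105 over vector and from -0.13 to 0.34 for MYC over vector. Against GFP it ran the other way, from 0.26 to -0.38 for miR-105 and from 0.31 to -0.27 for MYC. For MYC over miR-105, where neither control enters, it was -0.02 and -0.03. Against the other libraries, vector held relatively more of the short transcripts and GFP more of the long ones. The cause was not tested.

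**Figure D4:**
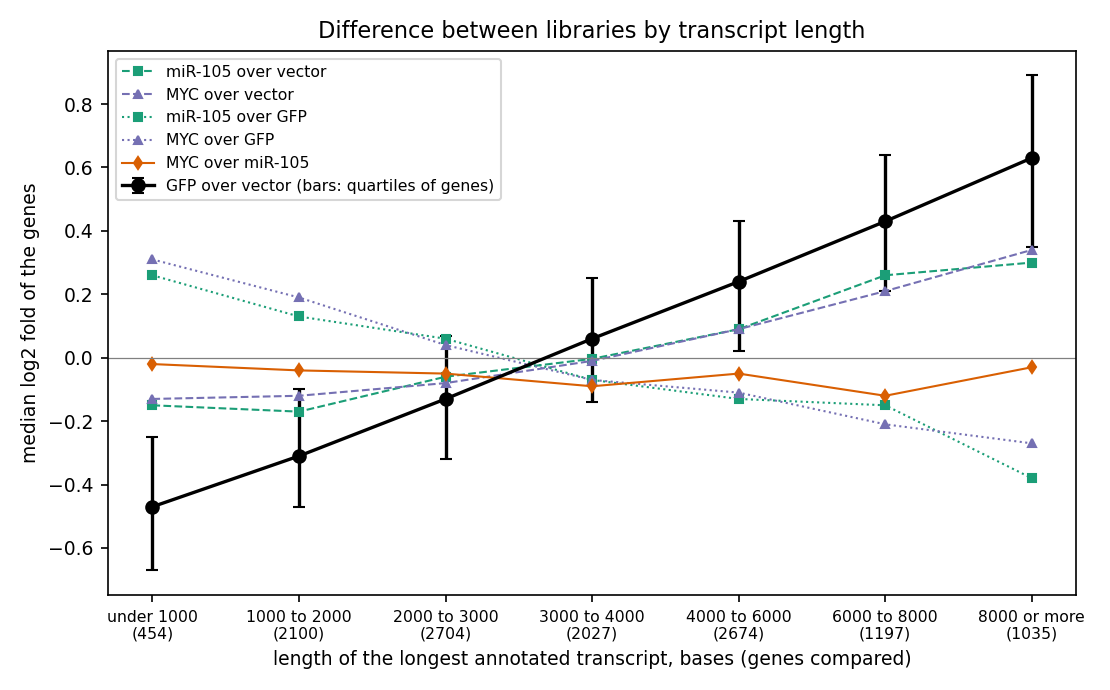
Median log2 fold of genes in bins of transcript length (number of genes in brackets) for each pair of libraries; the bars on the GFP over vector line are the quartiles of genes in the bin. GFP over vector climbs from -0.47 to 0.63, pairs with vector as the base climb less, pairs with GFP as the base fall, and MYC over miR-105 stays near 0.

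After the median of genes of like length had been taken away, 190 genes (1.56%) were at least 2-fold higher and 136 (1.12%) lower. Cytosolic ribosomal proteins had a median of -0.55, with 33 of 77 at least 1.5-fold lower and 0 higher. The adjustment brought short genes that were lower, and long genes that were higher, nearer to 0. Among short genes, the log2 fold of EMP3 (876 bases) went from -2.07 to -1.61, that of PTTG1 (1070 bases) from -1.63 to -1.17, that of MRPL23 (919 bases) from -1.02 to -0.56, that of TIMP1 (1095 bases) from -0.81 to -0.35 and that of MT1E (729 bases) from -0.77 to -0.31. VIM (1868 bases) went from -2.67 to -2.43, and CASP14 (3241 bases) stood at 2.23 before and after. Long genes moved the other way, FN1 from 1.65 to 1.10 and EGFR from 1.59 to 0.89. For some ribosomal genes the longest annotated transcript is not the usual one, as for RPL37 (7686 bases), so their adjusted values are rough.

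The spread between the controls exceeded counting error at every level. Its robust SD, scaled from the median absolute deviation of the log2 fold, was 0.601 for genes of 1 to 3 CPM, where counting error alone gives 0.475, and 12% of these genes were past 2-fold. It was 0.507 against 0.255 at 3 to 10 CPM, 0.436 against 0.143 at 10 to 30, 0.424 against 0.0850 at 30 to 100, and 0.435 against 0.0512 at 100 to 300. At 300 CPM or more it was 0.524 against 0.0285, with 3.78% of 529 genes past 2-fold. Taking away the median of genes of like length left 0.569, 0.423, 0.292, 0.237, 0.249 and 0.294 from the lowest to the highest bin. The counting interval left out 1 for 7231 genes (58.8%), so a difference beyond counting error was the usual state of a gene between these controls.

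**Figure D5:**
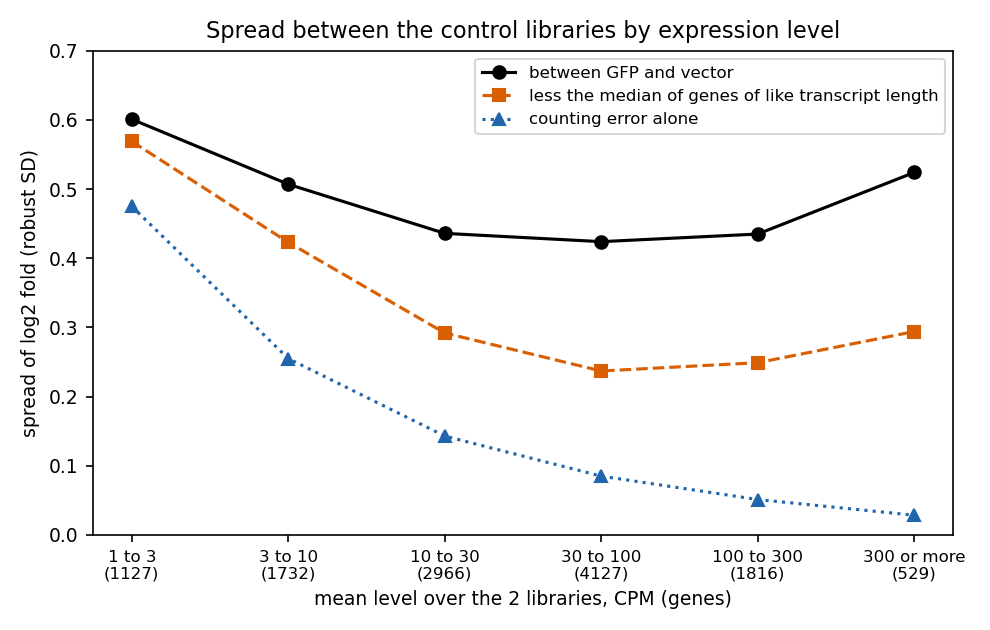
Spread of the log2 fold between GFP and empty vector (robust SD, circles) in bins of mean CPM, with the spread left after the median of genes of like transcript length is taken away (squares) and the spread that counting error alone gives (triangles). The observed spread stays between 0.424 and 0.601, while counting error falls from 0.475 to 0.0285.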

How the data were processed

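Poly(A) RNA-seq values of 4 MCF10A libraries were used, 1 for each construct, with the vector and GFP libraries compared. Per the submitters' processing notes, TopHat2, edgeR and build hg19 were used, with no versions; which program counted reads, with which gene models and strand setting, is not given in the sources used here. What the authors deposited was a normalised signal, not the counts that the design had assumed. It had the form of edgeR pseudo-counts, and undoing it at 1 dispersion for all genes, 0.0553, gave whole reads for 100% of 18859 values in each library (relative tolerance 1e-05); 19 repeated lines were dropped, leaving 18840 genes. The inversion was tested on simulated data. CPM used these totals and TMM factors over the 4 libraries (edgeR 4.0.16, R 4.3.3), and other steps pandas 2.3.3 and scipy 1.17.1.

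Genes that averaged 1 CPM or more over both controls were compared, with 0.5 CPM added before the log2. A library at 0 reads was set to a floor of 3 reads for a fold. No molecular identifiers are named in the labels, so reads may be copies of 1 molecule, and intervals and floors cover counting error only. With 1 library a construct, no test was made.

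Named were the 12 genes at each end by the interval bound nearest to 1, up to 2 members at each end of each of 50 gene lists, and MYC, MXI1 and TJP1; further list members, integrins, mucins and other families were named after their values were seen. Some genes that this rule names are not reported here. The comparison and the lists were chosen with earlier results of these data known. Nuclear long noncoding RNAs and small nucleolar RNA hosts were not analysed here. Symbols of 18522 genes were matched to GENCODE v29 (GRCh38) for length and GC content, and start sites are from RefSeq (GRCh38.p14). Other settings were run: 9 of scaling, filter, pseudocount and deposited values, and 2 added after the data had been seen (length, and length with GC content).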

Additional observations from a re-analysis of the deposited data

How the results depend on the processing

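Cytosolic ribosomal proteins were lower under every alternative run, with a median log2 fold of -0.92 with library totals alone, -0.95 with median-of-ratios factors and with the deposited values, -0.55 less genes of like length and -0.59 less genes of like length and GC content. The 391 genes at least 2-fold higher became 242 with a pseudocount of 2 CPM, 190 less like length and 185 less like length and GC content, and the 122 lower became 389 with no filter, 47 at a mean of at least 5 CPM, and 199 and 42 with pseudocounts of 0.1 and 2 CPM. The 1611 genes at least 1.5-fold higher became 702 and 686 under the length and the length with GC adjustment, and the 838 lower became 1654 with no filter. The median of genes of 8000 bases or more exceeded that of genes under 1000 bases by 0.84 with no filter and by 1.03 with a pseudocount of 2 CPM. HSPA4L, a chaperone gene 1.53-fold higher, turned to log2 folds of -0.10 and -0.01 under the length and the length with GC adjustment. Over 127 named genes and 1359 values, 1138 stayed within the counting error of the log2 fold, 219 moved and 2 reversed, both of HSPA4L. No paired analysis was possible because each construct had 1 library, and for the same reason no library could be left out. Depth limits low genes: 1 read was worth 0.108 CPM in vector and 0.0722 in GFP.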

Other observations

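The vector library held more genes at the edge of detection than the deeper GFP library. At least 1 read was seen for 16531 genes in vector and 15022 in GFP, although GFP had 14025115 reads against 9138429, and thinned to the depth of vector GFP would hold 14641 genes. At the depth of the shallowest library, 6859698 reads, the expected numbers were 16122 for vector, 14380 for GFP, 14564 for MYC and 13514 for miR-105. The genes with a read in vector and none in GFP numbered 1864, of which 1620 had at most 3 reads, with a median of 2 reads and a median GC content of 52.6%. The opposite set held 355 genes, 329 of them with at most 3 reads, with a median GC content of 45.7%. Of the 1864, 486 had a read in MYC and 151 in miR-105. Olfactory receptor genes, which belong to the nose and are rarely transcribed elsewhere, had a read for 92 of 382 genes in vector, 45 in GFP, 32 in MYC and 12 in miR-105. Their summed reads were not ordered in that way, at 246 in vector and 474 in GFP. Only 5 members were measured, of which 3 were at least 1.5-fold higher in GFP and 0 lower, beside 13.1% and 6.81% of all genes.

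A cluster of KRAB zinc finger genes on chromosome 19, between ZNF506 and ZNF254, held genes from both ends of the comparison. KRAB zinc finger proteins bind DNA and silence transposable elements and genes, and many of them arose by local duplication, so reads can match several members. Of 31 zinc finger genes of the table in that stretch, 17 were measured. At least 2-fold higher in GFP were 5, and 2 were lower, beside 3.18% and 0.992% of all genes. This stretch was delimited with its values in view, so the counts cannot test the cluster against all genes. ZNF737, ZNF98, ZNF492, ZNF729 and ZNF257 passed the 1 CPM filter only through the library where they were high. The 5 include ZNF98 and ZNF492, which had the same reads in each library and stand for 1 observation. ZNF737 (0.216 CPM in vector and 6.43 in GFP), ZNF493 (4.54 and 17.2 CPM, 3.79-fold, 2.72 to 5.39) and ZNF91 (19.4 and 39.5 CPM, 2.04-fold, 1.72 to 2.43) were higher, and ZNF729 (9.41 and 0 CPM) and ZNF257 (2.27 and 0.0722 CPM) lower. In the 2 other libraries ZNF729 stood at 0.784 CPM in miR-105 and 32.1 in MYC, and ZNF737 at 0.157 and 2.56 CPM. Over the whole family of 394 measured ZNF genes, 96 were at least 1.5-fold higher and 11 lower, beside 13.1% and 6.81% of all genes. The family's median was 0.25, and 0.10 after genes of like transcript length were taken into account.

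Mucin genes, which encode the large glycoproteins of epithelial surfaces, were split. Of 9 measured, 1 was at least 2-fold higher in GFP and 4 lower, beside 3.18% and 0.992% of all genes. The family was picked after its values were seen, so these counts cannot test it against all genes. Of the lower genes, MUC12, MUC3A and MUC5B were under 1 CPM in GFP and passed the filter only through vector. Its median log2 fold was -0.12, and -0.29 after the length adjustment. MUC16 stood at 164 CPM in vector and 486 in GFP, 2.96-fold higher (2.80 to 3.13), with 20.7 CPM in miR-105 and 5.69 in MYC. MUC6 stood at 12.8 and 5.63 CPM, 2.26-fold lower, and the other lower genes were MUC12, MUC3A and MUC5B. MUC1, the most abundant, stood at 1785 and 1643 CPM. The BAGE genes, a family of near-identical copies, had 4 of 4 measured members at least 2-fold higher; BAGE2 and BAGE3 shared the same reads, 25 in vector and 166 in GFP, so the members are not separate observations.

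By chromosome the medians of GFP over vector ran from -0.14 on chromosome 19 (914 genes) to 0.20 on chromosome 18 (177 genes). Chromosome 19 had a median transcript of 2681 bases and a GC content of 59.3%, and chromosome 18 of 4438 bases and 43.8%. After genes of like length and GC content were taken into account the medians were -0.03 and -0.0049.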
